A study of Mus musculus with 15 samples.

Results

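Goblet cells are the mucus-secreting cells of the airway epithelium, and 8 genes of their differentiation and secretion were followed here in mouse lung. The genes were Spdef and Foxa3 (transcription factors), Agr2 and Ern2 (endoplasmic reticulum proteins of the secretory path), Clca1 and Fcgbp (secreted mucus proteins) and Tff1 and Tff2 (trefoil peptides). They were chosen by name, with earlier results of these data known. Every array probe whose RefSeq transcript belongs to 1 of them was taken. This gave 9 probes, 2 of them for Tff1, of the 55681 non-control probes of the array. In mouse airways few goblet cells are present at rest, and they form from club cells and other secretory progenitors under interleukin 13, which signals through STAT6. SPDEF is required for this change and acts with FOXA3 on the genes of mucus production. AGR2 is a disulfide isomerase needed for mucin folding, ERN2 is the epithelial form of the stress sensor IRE1, and CLCA1, FCGBP and the trefoil peptides are released with the mucins.

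The samples came from female C57BL/6 mice that were 7 to 8 weeks old when housed. One set received rod-like carbon nanotubes (rCNT, fibre-shaped particles) by aspiration, at 10 µg per day for 4 days, suspended in 50 µl of buffered saline (PBS), and its control mice received 50 µl of PBS alone (4 samples each). The other set breathed rCNT as an aerosol of 6.2 to 8.2 mg per cubic metre for 4 h per day on 4 days (3 samples), with untreated mice as controls (4 samples). Lung tissue was taken 24 h after the final exposure, so all 15 samples are whole-lung RNA. In such bulk tissue, fewer cells of a type and less RNA per cell cannot be told apart. Nothing in the labels ties a sample to 1 mouse, so the p-values reflect only how far these samples scatter, and that scatter may be technical. One untreated sample, replicate 1, is titled as a PBS aspiration although the rest of its labels call it untreated. It was kept as untreated, and values without it are given where they change a call.

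Over the 25251 genes tested, samples of the same group correlated at 0.994 to 0.998, with a typical standard deviation within a group (SD, the median over genes) of 0.0968 to 0.115 in log2 units. The aspiration groups shared 1 slide and the inhalation and untreated groups the other 2, so slide, route and kind of control cannot be told apart. The controls of both routes differed from each other at 59.4% of the genes tested (limma, adjusted p below 0.05). All levels below are normalised log2 intensities of the sample's own colour channel, and all differences are in log2 units from 1 linear model that has a term for each group and for the dye (± standard error, SE). Because of the dye term a difference can depart slightly from that of the plain means. No level of 1 probe is set against that of another. Centring each sample on its median in place of quantile normalisation moved the median of all genes to -0.15 in inhaled rCNT against untreated, from -0.02. It also moved the share of calls that were higher from 46.65% to 27.47% there.

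Promoter sequences were at hand for 4 of the 8 genes, and they are shown because Spdef, Agr2 and Fcgbp rose after both exposures described below while Foxa3 passed the test only after aspiration. Each runs 5′ to 3′ on the gene's strand, from 250 bases before to 50 bases after the RefSeq start in build GRCm38.p6. Capitals mark matches to the motifs named below. The window of Agr2 is chr12:35992675-35992974 (+ strand), that of Spdef is chr17:27728902-27729201 (- strand), that of Foxa3 is chr7:19023490-19023789 (- strand) and that of Fcgbp is chr7:28070986-28071285 (+ strand).
Agr2: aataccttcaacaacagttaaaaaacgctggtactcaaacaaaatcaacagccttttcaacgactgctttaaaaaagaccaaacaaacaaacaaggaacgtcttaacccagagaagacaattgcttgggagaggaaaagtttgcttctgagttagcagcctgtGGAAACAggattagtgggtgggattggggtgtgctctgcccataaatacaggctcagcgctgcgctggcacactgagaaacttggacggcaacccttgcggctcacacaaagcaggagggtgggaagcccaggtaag
Spdef: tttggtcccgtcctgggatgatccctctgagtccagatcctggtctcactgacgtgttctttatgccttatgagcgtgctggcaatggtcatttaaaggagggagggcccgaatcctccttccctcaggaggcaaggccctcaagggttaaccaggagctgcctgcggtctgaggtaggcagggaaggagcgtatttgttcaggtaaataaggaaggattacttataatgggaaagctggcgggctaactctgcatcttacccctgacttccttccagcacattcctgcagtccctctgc
Foxa3: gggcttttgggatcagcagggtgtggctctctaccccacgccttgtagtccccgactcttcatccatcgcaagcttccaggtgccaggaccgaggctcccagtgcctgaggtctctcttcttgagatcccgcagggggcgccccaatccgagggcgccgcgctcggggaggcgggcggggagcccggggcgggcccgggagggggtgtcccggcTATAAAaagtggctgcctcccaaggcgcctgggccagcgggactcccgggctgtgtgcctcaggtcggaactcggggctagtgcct
Fcgbp: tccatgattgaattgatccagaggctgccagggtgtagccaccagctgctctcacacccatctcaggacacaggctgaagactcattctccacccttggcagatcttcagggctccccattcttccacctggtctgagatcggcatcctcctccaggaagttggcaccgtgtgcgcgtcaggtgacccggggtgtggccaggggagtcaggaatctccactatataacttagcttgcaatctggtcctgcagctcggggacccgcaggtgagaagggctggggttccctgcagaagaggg

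These windows were searched on both strands for the forkhead core TGTTTNC, the SPDEF-type ETS core CCGGAT, the STAT6 spacing (TTC and GAA with 4 bases between), the unfolded protein response element TGACGTGG and the TATA box TATAAA. The Agr2 window held 1 forkhead match, GGAAACA, which is the core read on the opposite strand and begins at position -87 from the start. The Foxa3 window held a TATA box beginning at position -36. The windows of Spdef and Fcgbp held none of the 5 motifs. Of 32851 windows of the same length, 20.5% held the forkhead core, 6.04% the ETS core, 6.95% the STAT6 spacing, 0.676% the unfolded protein response element and 13.6% the TATA box. A match is only a match of letters, and no pattern among these 4 genes was read from them.

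The first comparison was of aspirated rCNT with aspirated PBS. Each of the 8 genes was higher after rCNT, by 0.40 (Ern2) to 5.43 (Clca1), and in each the 4 exposed samples lay above the 4 PBS samples. The limma adjusted p lay between 1.49e-12 and 0.00246. Of all genes tested 20.6% passed in this direction and 26.5% in the other, and 19.2% had groups that did not overlap with rCNT higher. The median difference was 2.35 for the 8 genes and -0.04 for all genes tested. Foxa3 and Tff1 had to be well above background in an exposed group to be tested at all, so their direction here was partly set by that filter. The other 6 passed it in PBS samples too.

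The second comparison was of inhaled rCNT with untreated lungs. Of the 8 genes 6 were higher, by 0.76 (Tff1) to 6.18 (Clca1), against 28.4% of all genes tested that passed in this direction and 32.5% in the other. In these 6 the 3 exposed samples lay above the 4 untreated ones, which held with inhaled rCNT higher for 25.7% of all genes. Foxa3 and Ern2 did not pass. The median difference was 1.42 for the 8 genes and -0.02 for all genes tested. Ranked by the size of the rise among the 25251 genes, Clca1 was number 1 after inhalation and 2 after aspiration, and Agr2 was 16 and 17. Tff2 was 211 and 328, Fcgbp 276 and 31, Spdef 889 and 340, and Tff1 1842 and 28. Ern2 was 12685 and 2685, and Foxa3 15345 and 1383. The genes were chosen with earlier results of these data known, so the ranks only describe them.

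**Figure D1:**
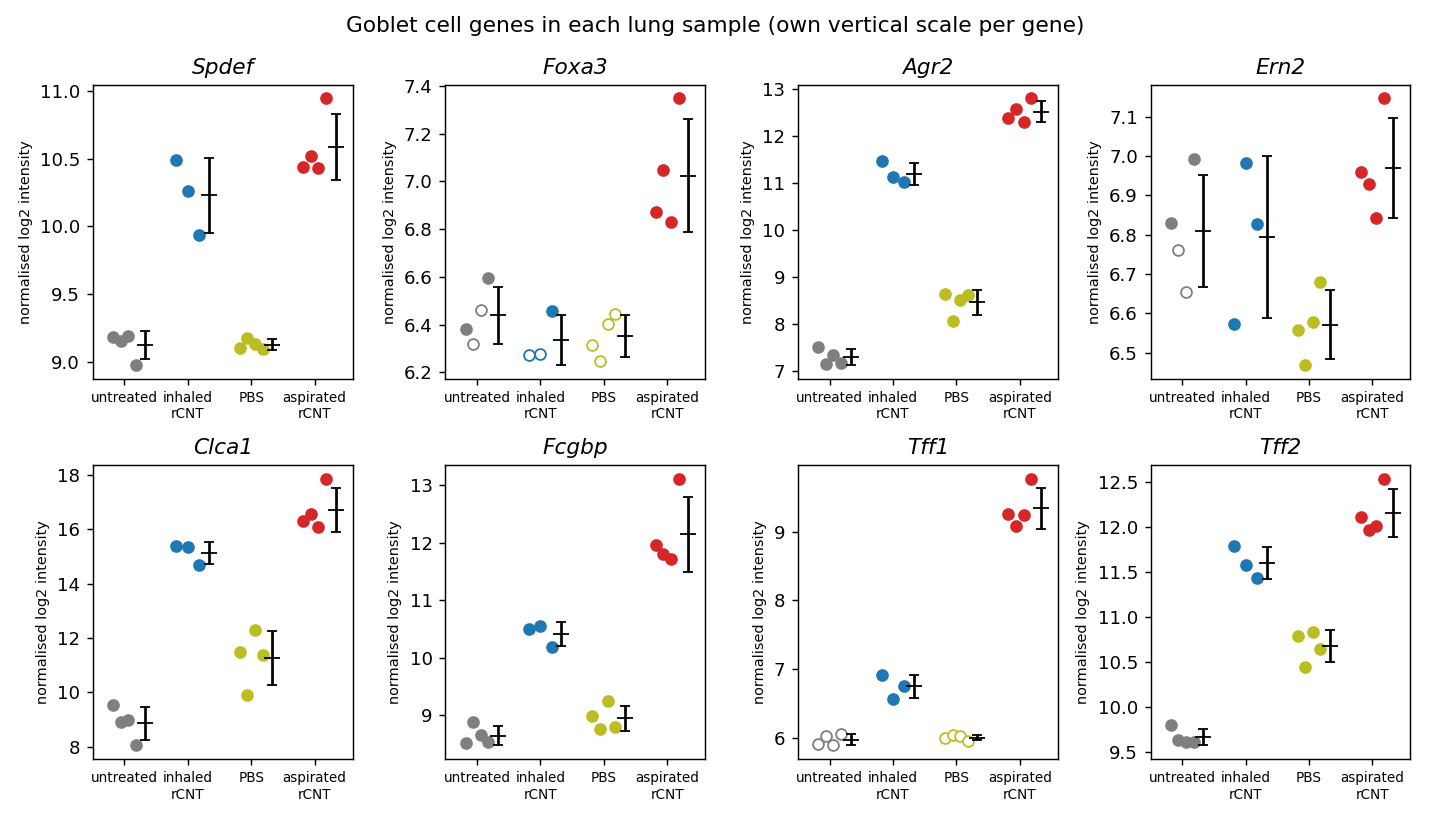
Normalised log2 intensity of the 8 genes in each of the 15 lung samples, with a separate vertical axis for each gene; points are samples, bars are the group mean ± SD, and open points were not well above background. Clca1 and Agr2 lie lowest in untreated and highest in aspirated rCNT samples, and Foxa3 is raised in the 4 aspirated rCNT samples.

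Spdef, the ETS factor that drives goblet cell differentiation, was read by 1 probe (A_55_P2007249) that was well above background in all 15 samples. Its level was 10.44, 10.52, 10.43 and 10.94 in the 4 aspirated rCNT samples and 9.10, 9.18, 9.14 and 9.10 in the 4 PBS samples. In inhaled rCNT samples it was 10.49, 10.26 and 9.94, and in untreated samples 9.19, 9.15, 9.19 and 8.98. Each exposed sample lay above every control sample of either kind. Spdef rose by 1.46 ± 0.12 after aspiration (2.74-fold, limma adjusted p = 5.96e-08) and by 1.09 ± 0.13 after inhalation (2.13-fold, adjusted p = 2.24e-06). The controls of both routes were alike in level, with PBS minus untreated at 0.0007 and a 95% interval of -0.25 to 0.25 (adjusted p = 0.997).

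Foxa3, a forkhead factor that SPDEF and interleukin 13 bring up in goblet cells, was a dim signal (probe A_52_P64707, well above background in 7 of 15 samples). Its level was 6.87, 7.05, 6.83 and 7.35 in aspirated rCNT samples, all well above background, and 6.31, 6.25, 6.40 and 6.44 in PBS samples, none of which was. In inhaled rCNT samples it was 6.27, 6.28 and 6.46, with only the third well above background. In untreated samples it was 6.38, 6.32, 6.46 and 6.59, with replicates 1 and 4, the Cy3-labelled ones, well above background. The aspirated rCNT samples thus stood above all the others, and the remaining groups overlapped one another.

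Because PBS samples gave only a bound, Foxa3 was at least 1.59-fold higher in aspirated rCNT (fitted difference 0.67 ± 0.09, adjusted p = 1.34e-05). For such a bound each dim sample is set to whichever is larger, its own value or the dimmest signal that its array still calls well above background. With the scanner's background-subtracted signal, which does not compress dim probes in the same way, the fitted difference was 2.18. After inhalation the difference was -0.13 with a 95% interval of -0.33 to 0.08 (adjusted p = 0.273). Only 1 of 3 inhaled rCNT and 2 of 4 untreated samples were well above background. The interval therefore holds only on this compressed scale and cannot exclude a rise at levels near background.

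Agr2, the disulfide isomerase of mucin folding, was well above background in all 15 samples (probe A_51_P209122). Its level was 12.38, 12.58, 12.31 and 12.81 in aspirated rCNT samples and 8.64, 8.08, 8.53 and 8.63 in PBS samples. In inhaled rCNT samples it was 11.47, 11.13 and 11.02, and in untreated samples 7.51, 7.15, 7.36 and 7.17. The 4 groups did not overlap, and the gap between exposed and control samples was far wider than the spread within any group. Agr2 rose by 4.05 ± 0.12 after aspiration (16.6-fold, adjusted p = 1.49e-12) and by 3.87 ± 0.13 after inhalation (14.7-fold, adjusted p = 8.03e-12). These were the smallest adjusted p-values among the 8 genes in both comparisons.

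Ern2, the epithelial sensor of unfolded protein, was dim and changed least (probe A_51_P337355, well above background in 13 of 15 samples). Its level was 6.96, 6.93, 6.84 and 7.15 in aspirated rCNT samples and 6.56, 6.47, 6.58 and 6.68 in PBS samples. It was 6.57, 6.98 and 6.83 in inhaled rCNT samples and 6.83, 6.76, 6.65 and 6.99 in untreated samples, with untreated replicates 2 and 3 not well above background. Aspirated rCNT samples lay above PBS samples but among the untreated ones. Ern2 rose by 0.40 ± 0.09 after aspiration (1.32-fold, adjusted p = 0.00246), or by 1.16 with the scanner's background-subtracted signal. After inhalation the difference was -0.02 with a 95% interval of -0.24 to 0.20 (adjusted p = 0.868).

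Clca1, a secreted protease-like protein of goblet cell granules, showed the largest differences of the 8 genes between exposed and control samples of a route (probe A_51_P422751, well above background in all 15 samples). Its level was 16.31, 16.55, 16.09 and 17.86 in aspirated rCNT samples and 11.49, 9.91, 12.31 and 11.36 in PBS samples. In inhaled rCNT samples it was 15.38, 15.34 and 14.67, and in untreated samples 9.52, 8.90, 9.0 and 8.05. No group overlapped another, although Clca1 also varied more within groups than the other 7 genes, with an SD of 1.0 in PBS and 0.61 in untreated samples. It rose by 5.43 ± 0.42 after aspiration (43.2-fold, adjusted p = 3.46e-08) and by 6.18 ± 0.45 after inhalation (72.3-fold, adjusted p = 1.59e-08).

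Fcgbp, a large protein that is cross-linked into mucus, was well above background in all 15 samples (probe A_51_P380078). Its level was 11.96, 11.81, 11.71 and 13.12 in aspirated rCNT samples and 8.98, 8.76, 9.24 and 8.79 in PBS samples. In inhaled rCNT samples it was 10.50, 10.56 and 10.18, and in untreated samples 8.51, 8.88, 8.65 and 8.53. PBS and untreated samples overlapped, and both exposed groups lay above them and apart from each other. Fcgbp rose by 3.21 ± 0.22 after aspiration (9.25-fold, adjusted p = 1.23e-08) and by 1.74 ± 0.24 after inhalation (3.35-fold, adjusted p = 1.54e-05).

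Tff1, a trefoil peptide best known from the stomach, was not well above background in any PBS or untreated sample. Its brighter probe (A_55_P2112005) read 9.26, 9.08, 9.24 and 9.77 in aspirated rCNT samples and 6.91, 6.57 and 6.76 in inhaled rCNT samples, all 7 well above background. It read 5.95 to 6.03 in PBS and 5.89 to 6.06 in untreated samples. The second probe (A_55_P2021585) read 8.88 to 9.54 in aspirated and 6.68 to 6.85 in inhaled rCNT samples, against 5.98 to 6.28 in the 8 control samples. Both probes thus put aspirated rCNT samples highest and inhaled rCNT samples between them and the controls.

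By these bounds Tff1 exceeded its level in PBS samples at least 8.80-fold on its brighter probe and at least 7.51-fold on the other. After inhalation it exceeded the untreated level at least 1.36-fold and at least 1.37-fold. The fitted differences of the brighter probe were 3.34 ± 0.11 (adjusted p = 3.39e-12) and 0.76 ± 0.12 (adjusted p = 5.17e-05). With the scanner's background-subtracted signal these were 6.86 and 3.19, so the size of the Tff1 rise is set by how background is handled.

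Tff2, the other trefoil peptide of the airway, is a neighbour of Tff1 in a gene cluster with Tff3, and it had a signal well above background in all 15 samples (probe A_51_P480602). Its level was 12.12, 11.97, 12.01 and 12.54 in aspirated rCNT samples and 10.79, 10.44, 10.84 and 10.64 in PBS samples. In inhaled rCNT samples it was 11.79, 11.58 and 11.44, and in untreated samples 9.80, 9.64, 9.61 and 9.61. The 4 groups did not overlap. Tff2 rose by 1.48 ± 0.11 after aspiration (2.79-fold, adjusted p = 2.20e-08) and by 1.91 ± 0.12 after inhalation (3.76-fold, adjusted p = 2.65e-09). Tff3 had no probe well above background in any sample.

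Whether the exposures changed these genes by different amounts was tested as the aspiration difference minus the inhalation difference, which also contains any difference between the controls and between the slides. Of the 8 genes 4 were changed more by aspiration and 1 more by inhalation, against 28.4% and 28.5% of all genes tested. With median centring the share of positive calls among all genes moved from 49.91% to 69.36%. Tff1 differed most, by 2.58 ± 0.16 on its brighter probe (adjusted p = 6.80e-09) and 2.44 on the other. Fcgbp differed by 1.47 ± 0.33 (adjusted p = 0.00136) and Foxa3 by 0.80 ± 0.13 (adjusted p = 8.81e-05), or 2.36 with the scanner's background-subtracted signal. For Foxa3 and Tff1 these sizes rest on groups mostly or wholly at background, and both genes passed the filter only through groups where they were high, so their tests of the difference carry the same limit as above.

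Smaller differences of effect were less firm. Ern2 differed by 0.42 ± 0.14 (adjusted p = 0.0170) but did not pass when inhaled rCNT replicate 1 was left out (0.30, adjusted p = 0.0559) or with the scanner's background-subtracted signal (1.08, adjusted p = 0.0502). Tff2 rose more after inhalation, the difference being -0.43 ± 0.16 (adjusted p = 0.0321), but it did not pass in 11 of 27 other settings. Among those it was -0.11 with median centring (adjusted p = 0.715). It also missed the threshold without aspirated rCNT replicate 2 or 3, any 1 PBS sample except replicate 2, inhaled rCNT replicate 1 or 2, or untreated replicate 4.

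For the remaining 3 genes no difference of effect passed. The value was -0.74 for Clca1 (95% interval -2.05 to 0.56, adjusted p = 0.318) and 0.18 for Agr2 (-0.21 to 0.57, adjusted p = 0.417). For Spdef it was 0.36 (-0.005 to 0.73, adjusted p = 0.0856). The interval of Clca1 is wide and reaches further toward a larger inhalation effect than toward a larger aspiration effect. That of Agr2 is narrow against a rise of about 4 on the same scale. Spdef passed in 4 of 27 other settings, among them those without inhaled rCNT replicate 1 (0.49, adjusted p = 0.0238) and without untreated replicate 4 (0.43, adjusted p = 0.04996). Agr2 passed with median centring (0.57, adjusted p = 0.0338).

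**Figure D2:**
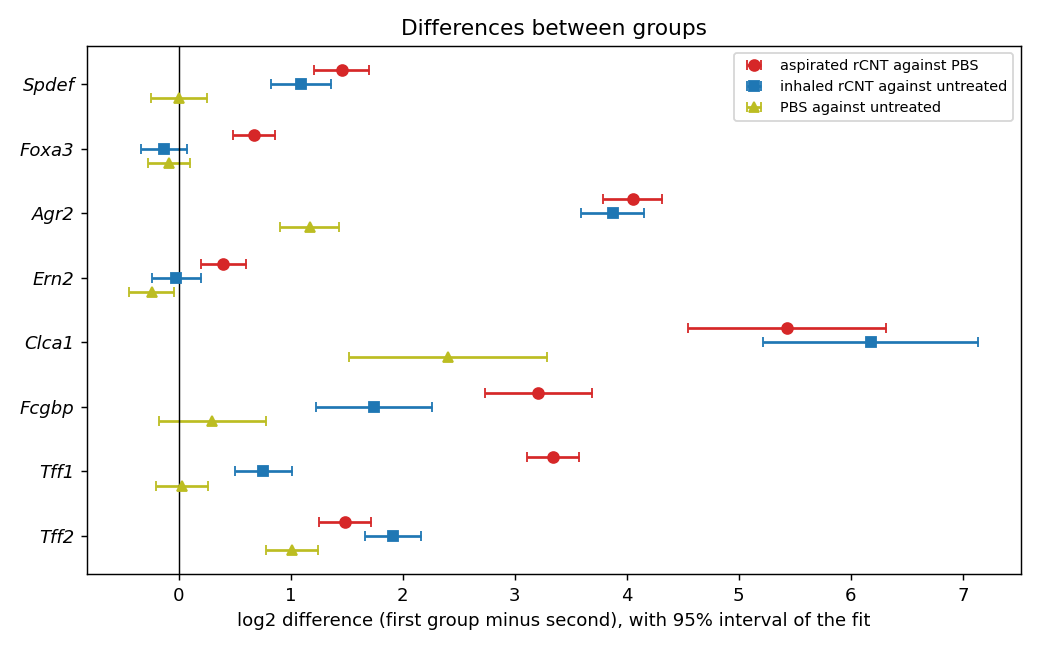
Log2 differences between groups for the 8 genes, as the first-named group minus the second with the 95% interval of the linear model; circles are aspirated rCNT against PBS, squares inhaled rCNT against untreated and triangles PBS against untreated. Clca1 and Agr2 lie far right in both exposures, Foxa3 and Ern2 are near 0 after inhalation, and for Tff1 and Foxa3 the fitted values rest on control samples that were mostly not above background.

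The controls were then compared with each other, as PBS minus untreated. Of the 8 genes 3 were higher in PBS samples and 1 lower, against 26.3% and 33.1% of all genes tested. Clca1 was higher by 2.40 ± 0.42 (5.28-fold, adjusted p = 0.000136), Agr2 by 1.17 ± 0.12 (2.25-fold, adjusted p = 9.44e-07) and Tff2 by 1.01 ± 0.11 (2.02-fold, adjusted p = 1.14e-06). In these 3 genes every PBS sample lay above every untreated sample, as with PBS higher in 21.8% of all genes. With the scanner's background-subtracted signal the value for Agr2 was 1.80. With median centring 59.2% of all calls were higher, against 44.29%.

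Ern2 was lower in PBS samples by -0.24 ± 0.09 (adjusted p = 0.0393), with overlapping groups, and this call was lost in 8 of 27 other settings. Without untreated replicate 1 the adjusted p was 0.0672, and it was also above the threshold without untreated replicate 2 or 4 or without PBS replicate 1, 2 or 3. Fcgbp was 0.30 higher in PBS samples and did not pass (adjusted p = 0.264), but it passed without aspirated rCNT replicate 4 (adjusted p = 0.0413). Foxa3 and Tff1 differed by -0.09 and 0.03, also without passing, and with median centring Tff1 was at -0.28 and Foxa3 at -0.26, where Foxa3 passed (adjusted p = 0.0450).

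Put in order, untreated samples were lowest, then PBS, then inhaled rCNT, then aspirated rCNT for Clca1, Agr2 and Tff2. Every neighbouring step was past the threshold. Each such step is between groups on different slides, so slide and route cannot be told apart in it. Between inhaled rCNT and PBS the steps were 3.78 for Clca1, 2.70 for Agr2 and 0.90 for Tff2, and 6 of the 8 genes were higher in inhaled rCNT, against 27.5% of all genes tested. The step of Tff2 fell to 0.36 with median centring and did not pass (adjusted p = 0.0677). With that centring 21.06% of all calls in this comparison were higher, against 49.86%.

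The step from inhaled to aspirated rCNT passed for 7 of the 8 genes, against 27.9% of all genes tested, and with median centring 75.7% of all calls were higher, against 45.52%. It was 1.66 for Clca1, 1.35 for Agr2, 0.59 for Tff2, 1.76 for Fcgbp, 2.61 for Tff1 and 0.71 for Foxa3. For Spdef it was 0.36 (adjusted p = 0.0215) with overlapping groups. That call was lost without aspirated rCNT replicate 4 (0.23, adjusted p = 0.0962) or inhaled rCNT replicate 3 (0.21, adjusted p = 0.153). For Ern2 no neighbours in the order PBS, inhaled rCNT, untreated and aspirated rCNT differed past the threshold, while its ends did. These steps were not firm: inhaled rCNT against PBS passed in 5 other settings, among them median centring (0.30, adjusted p = 0.0206) and without inhaled rCNT replicate 1 (0.33, adjusted p = 0.0113), and aspirated rCNT against untreated passed with loess (0.26, adjusted p = 0.0193). Against untreated samples 7 of the 8 genes were higher in aspirated rCNT samples, where 29.4% of all genes tested passed in that direction.

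Inhaled rCNT and untreated samples shared 2 slides, so their comparison could be made within a slide. On slide 2, with 1 inhaled rCNT and 3 untreated samples, and on slide 3, with 2 and 1, the same 6 genes passed as over both slides. Clca1 was higher by 5.76 on slide 2 and 7.32 on slide 3, Agr2 by 3.98 and 4.01, and Spdef by 1.29 and 1.14. Fcgbp was higher by 1.69 and 1.93, Tff2 by 2.0 and 1.97, and Tff1 by 0.92 and 0.64. A lone sample in such a comparison was assumed to vary like the other samples. The lone untreated sample of slide 3, replicate 4, shared its array with inhaled rCNT replicate 2, in the opposite dye. Foxa3 was at -0.21 and -0.16 and Ern2 at -0.20 and -0.07, neither passing on either slide.

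Within groups, deviations were shared across genes to a varying degree. Aspirated rCNT replicate 4 had the highest level of its group for each of the 8 genes, on average 0.51 above the group mean. PBS replicate 3 lay above its group mean for each of them, on average by 0.21. Over the 28 pairs of genes, deviations from a fit of group and dye were also correlated over the 15 samples. The correlation had a median of 0.50 and ran from -0.10 (Spdef with Ern2) to 0.82, with 14 pairs above 0.5. The same was not computed for other genes. These deviations share the library, so a sample's own RNA or labelling enters each of them. Without aspirated rCNT replicate 4 the 8 genes were still higher than in PBS samples, by 0.34 (Ern2, adjusted p = 0.0123) to 5.10 (Clca1).

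**Figure D3:**
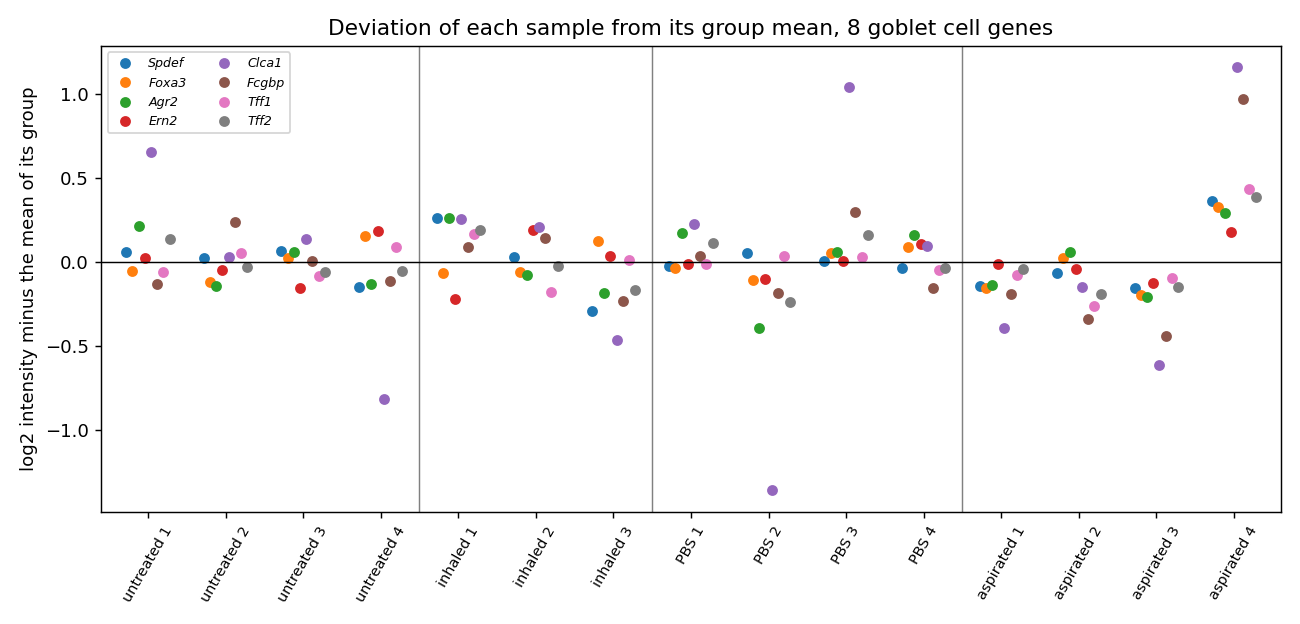
Deviation of each sample's log2 intensity from its group mean for the 8 genes, by sample, with 1 colour for each gene. All 8 points of aspirated rCNT replicate 4 lie above 0, and Clca1 has the widest scatter.

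The genes whose levels were most like each of the 8 over the 15 samples were found by Pearson correlation among 15829 genes with a symbol, where group differences make up most of the likeness. Clca1 was most like Tff2 (r = 0.988), Agr2 (0.987) and Nek2 (0.986), a kinase of mitosis. Agr2 was most like the proliferation marker gene Mki67 (0.995), followed by H2az1 (0.992) and Fignl1 (0.991). Mki67 rose by 2.52 after aspiration and 2.22 after inhalation. Tff2 was most like Clca1, Muc4 (0.981), a membrane mucin, and Noxo1 (0.980), an organiser of an epithelial NADPH oxidase.

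Fcgbp was most like Scin (0.993), the gel-forming mucin Muc5ac (0.993) and Capn9 (0.987). Spdef was most like Adra2a (0.978), Cp (0.974), which encodes ceruloplasmin, and Retnlb (0.972), a secreted resistin-like protein of goblet cells. Tff1 was most like Chl1 (0.995), the inhibitory Fc receptor gene Fcgr2b (0.994) and Gatm (0.993), an enzyme of creatine synthesis. Foxa3 was most like Ngfr (0.959), Cycs (0.957) and Gmppb (0.955), and Ern2 like Cd209a (0.937), Cdc45 (0.891) and Mrps28 (0.874). Of these, Chl1 rose by 3.89 after aspiration and 0.91 after inhalation, and Scin by 2.81 and 1.35. With the scanner's background-subtracted signal their inhalation values were 2.17 and 2.51.

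Close relatives of the 8 genes were read as well, and no test compared them with the 8. Over all genes tested 20.6% were higher and 26.5% lower after aspiration, and 28.4% and 32.5% after inhalation. These shares apply beside each list count below for aspiration and inhalation. In the CLCA family 2 relatives of Clca1 passed the filter and both rose, Clca3a1 by 0.87 after aspiration and 0.71 after inhalation and Clca3a2 by 0.68 and 0.42. Their median was 0.77 after aspiration and 0.56 after inhalation. Within slide 3 only 1 of them passed. The probes of Clca2, Clca3b, Clca4a and Clca4b were not well above background in any sample. Clca1 and its relatives are similar in sequence, and cross-hybridisation of their probes was not tested.

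Among 7 relatives of the other genes 3 rose and 2 fell after aspiration, and 5 rose and 1 fell after inhalation, with medians of -0.14 and 0.60. Agr3, the partner gene of Agr2, rose by 0.28 after aspiration and 0.97 after inhalation. The epithelial ETS factors Ehf and Elf3 rose by 0.46 and 0.47 after aspiration and by 1.19 and 0.60 after inhalation. Elf5 was at -0.14 after aspiration without passing and fell by 0.40 after inhalation. Ern1, the ubiquitous form of the sensor, was at -0.16 after aspiration without passing and rose by 1.08 after inhalation.

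The other FOXA genes did not follow Foxa3. Foxa1 fell by 0.32 after aspiration and rose by 0.54 after inhalation, and Foxa2 fell by 0.21 after aspiration and was at -0.06 after inhalation without passing. These calls were not firm: with median centring neither fall passed (adjusted p = 0.155 and 0.200), the rise of Foxa1 was 0.15 without passing, and Foxa2 fell by 0.48 after inhalation. The fall of Foxa1 was also lost without PBS replicate 4 (adjusted p = 0.0569) and that of Foxa2 without aspirated rCNT replicate 3 (adjusted p = 0.0607), each of which leaves 1 fall in the list.

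Mucins, the cargo that goblet cells secrete or display, were mostly higher after both exposures. After aspiration 5 of 5 measured mucins rose, with a median of 1.59, led in p by Muc5ac (3.67 ± 0.23) and Muc4 (1.61 ± 0.11). After inhalation 4 of 5 rose, with a median of 1.96, led by Muc5b (2.66 ± 0.13) and Muc4 (2.43 ± 0.12). With median centring 3 rose and 1 fell after inhalation. The 15 measured genes of mucin glycosylation were mixed, with 6 higher and 2 lower after aspiration and 6 higher and 7 lower after inhalation (medians -0.05 and 0.03). Galnt6, which starts O-glycan chains, rose by 1.15 and Gcnt1, which branches them, by 0.92 after aspiration. After inhalation St6galnac1, a sialyltransferase, rose by 2.27, or by 1.19 as the mean of its probes and 1.23 within slide 3, and Galnt10 fell by 0.78. With median centring 2 were higher after inhalation, and without PBS replicate 1 or 4 only 1 was lower after aspiration.

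Of 14 other secretory products 8 rose and 3 fell after aspiration, with a median of 1.08, and 11 rose and none fell after inhalation, with a median of 1.99. Retnlb was at least 25.0-fold higher after aspiration and at least 7.23-fold higher after inhalation, being above background in no control sample. It thus passed the filter only through exposed samples, so the filter favoured its rise. Dmbt1, a scavenger protein of mucosal surfaces, rose by 3.19 after aspiration. Pigr, the transporter of secretory antibodies, rose by 2.31 after inhalation. Limited to probes above background in all 15 samples, 5 rose after aspiration. In PBS against untreated 10 of the 14 were higher and none lower, against 26.3% and 33.1% of all genes tested. The aspiration count of falls was 1 without PBS replicate 3 or with median centring. After inhalation 1 fall was counted without inhaled rCNT replicate 1, without untreated replicate 4 or with median centring.

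Of 23 upstream signals and regulators of goblet cell differentiation 10 rose and 8 fell after aspiration, against 20.6% and 26.5% of all genes tested. After inhalation 7 rose and 9 fell, against 28.4% and 32.5%, so the inhalation counts are near the background. The medians were 0.14 after aspiration and -0.09 after inhalation. Il4, the sister cytokine of interleukin 13, rose by 2.24 after aspiration, or by 3.53 with the scanner's background-subtracted signal, and Foxm1, a proliferation factor needed by goblet cell progenitors, rose by 1.62 after aspiration and 0.81 after inhalation. As the mean of its probes Foxm1 rose by 1.07 and 0.49. Notch1, a receptor that guides secretory fate, rose by 2.51 after inhalation, or by 1.02 as the mean of its probes. With median centring 4 fell after aspiration, and 6 rose there when the test was limited to probes above background in all 15 samples.

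Of 24 genes of endoplasmic reticulum folding and the unfolded protein response, the setting in which AGR2 and ERN2 act, 16 rose and 2 fell after aspiration. Their median was 0.42. Sdf2l1, a cofactor of the chaperone BiP, rose by 1.58 and the stress-type transcription factor Creb3l4 by 0.62. The PBS level was itself often below the untreated one. In PBS against untreated 3 of the 24 were higher and 11 lower, against 26.3% and 33.1% of all genes tested. The list median there was -0.18. After inhalation 12 rose and 5 fell, with a median of 0.22, led by Hsp90b1 (0.77) and Edem1 (0.59). This direction after inhalation depended on the scaling: with median centring 0 rose and 8 fell. Without inhaled rCNT replicate 2 the count of rises was 7, and within slide 2 it was 4.

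**Figure D4:**
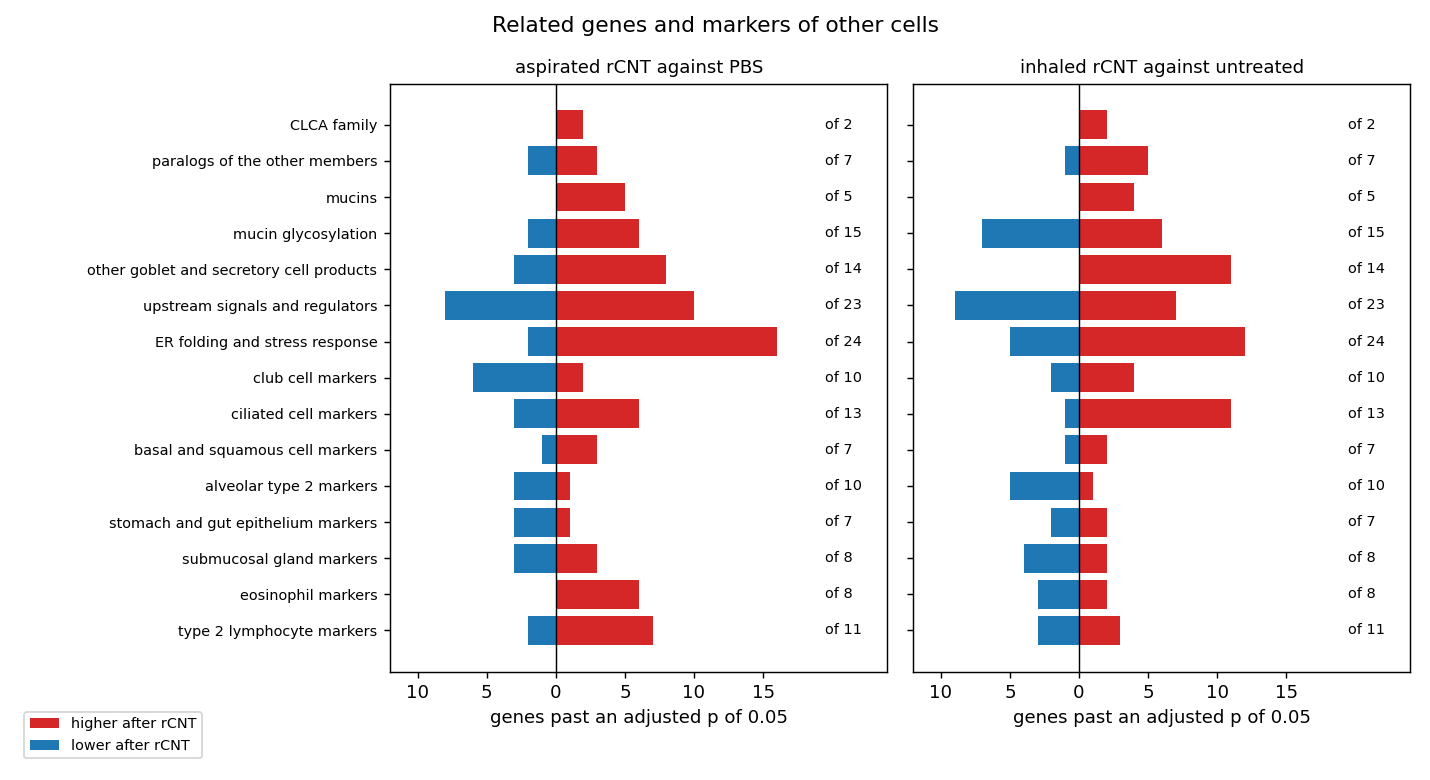
Numbers of measured genes past an adjusted p of 0.05 in each gene list, to the right for genes higher after rCNT and to the left for genes lower, in aspirated rCNT against PBS and inhaled rCNT against untreated, with the number measured at the right. Mucins are to the right in both, club cell markers are mostly to the left after aspiration, ciliated cell markers are to the right after inhalation, and the 12 rises of the folding list after inhalation were 0 with median centring.

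Markers of other cell types were read in the same samples, and their part in the results above was not tested. Beside their counts stand the shares of all genes tested, 20.6% higher and 26.5% lower after aspiration and 28.4% and 32.5% after inhalation. Of 10 measured club cell markers, the cells from which goblet cells can form, 2 rose and 6 fell after aspiration, among them Aldh1a1 (-1.20) and Ces1d (-1.08). The summed intensity of these markers was 319998 to 427094 in aspirated rCNT samples and 639989 to 739815 in PBS samples, without overlap. Such a sum, here and below, weighs bright genes most. After inhalation 4 rose and 2 fell, led by Lypd2 (0.63) and Gabrp (0.79), which with median centring were at 0.21, without passing (adjusted p = 0.132), and 0.44. The list medians were -0.36 after aspiration and 0.17 after inhalation, against -0.04 and -0.02 over all genes tested. After inhalation the sum of the club cell markers was 612557 to 693634 against 657013 to 697694 in untreated samples. With median centring 2 rose and 4 fell after inhalation, and within slide 2 none fell.

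Of 13 ciliated cell markers 6 rose and 3 fell after aspiration, with Foxj1 at 0.71 and Tppp3 at -0.99, and 11 rose and 1 fell after inhalation, with Ccdc39 at 2.30 and Rsph1 at 1.69. Their medians were 0.19 and 1.37. Their sum was 74563 to 86245 in aspirated rCNT and 67785 to 76986 in PBS samples, and 109261 to 129185 in inhaled rCNT and 66352 to 73949 in untreated samples. Of 7 basal and squamous markers 3 rose and 1 fell after aspiration and 2 rose and 1 fell after inhalation, with Aqp3 at 1.53 and 0.63, Ngfr at 0.65 after aspiration and Krt13 at -0.67 after inhalation. Their medians were 0.21 and 0.15, and their sums overlapped between exposed and control samples. The 1 fall after aspiration was lost without aspirated rCNT replicate 1, 2 or 4 or PBS replicate 1 or 2, and 1 rose after inhalation within either slide.

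Of 10 alveolar type 2 markers, genes of the surfactant-making cells, 1 rose and 3 fell after aspiration, led by Sftpb (-0.50) and Abca3 (-0.51). After inhalation 1 rose and 5 fell, led by Napsa (-0.95) and Lpcat1 (-0.48). With median centring 0 rose and 9 fell after inhalation. Without inhaled rCNT replicate 2 there were 0 and 8, without untreated replicate 4 the count of rises was 0, and without PBS replicate 2 there were 5 falls after aspiration. Their medians were -0.20 and -0.36, and their sums overlapped between exposed and control samples.

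Trefoil peptides and Agr2 are also made in stomach and gut, so markers of that epithelium were read as well. Of its 15 markers 7 passed the filter, and the probes of the stomach and gut genes Gkn2, Atp4a, Atp4b, Muc2, Cdx1 and Cdx2 stayed at background throughout. Of the 7, 1 rose and 3 fell after aspiration, with Fabp1 at -3.55 and Fabp2 at 0.46, and 2 rose and 2 fell after inhalation, with Fabp1 at -2.40 and Lgals4 at 2.59. Their medians were -0.18 and 0.07. Their sum, which weighs bright genes most, was 1758 to 1868 in aspirated rCNT samples and 3693 to 4696 in PBS samples. It was 2391 to 2608 in inhaled rCNT samples and 2922 to 3349 in untreated samples.

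Of 8 submucosal gland markers 3 rose and 3 fell after aspiration and 2 rose and 4 fell after inhalation. Ltf rose by 2.22 and 3.22, and Dmbt1, which is also on the list of secretory products, by 3.19 and 2.62. Dmbt1 was well above background in 1 of 4 untreated samples, and its inhalation value was 5.30 with the scanner's background-subtracted signal. The gland medians were -0.06 and -0.26. The sum was 112936 to 117376 in aspirated rCNT and 133093 to 144482 in PBS samples, and 121195 to 124345 in inhaled rCNT and 127289 to 161634 in untreated samples. The probes of the gland markers Bpifb2 and Prol1 were not well above background in any sample. Whether the transcripts of the 8 measured genes came from gland cells was not tested. Within slide 2 and within slide 3 the gland markers lower after inhalation numbered 2.

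Eosinophil and type 2 lymphocyte markers differed between the exposures in their counts, although that contrast of counts was not tested. Of 8 eosinophil markers 6 rose and none fell after aspiration, with Cd300lf at 1.79 and Prg2, a granule protein, at 2.99. Prg2 was well above background in 5 of 15 samples, 4 of them aspirated rCNT, and 3 markers rose when the test was limited to probes above background in all 15 samples. After inhalation 2 rose and 3 fell, with Cd300lf at 1.65 and Ear1 at -1.98, and within either slide 1 rose. Their medians were 1.60 and -0.06. Their summed intensity was 18302 to 22013 in aspirated rCNT against 10976 to 13699 in PBS samples. It was 4400 to 4846 in inhaled rCNT against 8635 to 11311 in untreated samples. Such a sum weighs bright genes most, and which cells made these transcripts was not tested. The probe of the eosinophil peroxidase gene Epx did not rise well above background in these lungs.

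Of 11 type 2 lymphocyte markers 7 rose and 2 fell after aspiration, and 3 rose and 3 fell after inhalation, with medians of 1.02 and -0.02. Their sum was 4966 to 6160 in aspirated rCNT and 3394 to 3745 in PBS samples, and it overlapped between inhaled rCNT and untreated samples. Il13, the cytokine named above, exceeded its PBS level at least 4.86-fold in aspirated rCNT samples, and Il4 rose by 2.24. After inhalation Il13 was at 0.26 (adjusted p = 0.272) and Il4 at -0.16 (adjusted p = 0.294), neither passing, with Il13 well above background in 1 of 3 inhaled rCNT samples and Il4 in none. Il13 and Il5 were each well above background in 5 of 15 samples, 4 of them aspirated rCNT, so the filter favoured their rise there. Limited to probes above background in all 15 samples, 3 of the list rose after aspiration. After inhalation Gata3 was at -1.18 and Areg at 1.70, both past the threshold. The falls after aspiration numbered 1 without any 1 aspirated rCNT sample, without PBS replicate 1, 2 or 3 or without inhaled rCNT replicate 1.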

How the data were processed

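Lung RNA was measured on 2-colour Agilent mouse arrays, with 15 samples on 14 arrays and 3 slides. The authors deposited each array's scanner output, whose channel intensity values, per the file headers, came from Agilent Feature Extraction 11.0.1.1 and are not normalised between arrays. They also deposited a table of normalised values on what its range shows to be a log2 scale (its base is not stated), used here as an alternative. The submitters' processing notes name Feature Extraction and limma.

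Each sample's own dye channel was read (Cy5 or Cy3, per the labels), corrected with normexp (offset 50) and quantile-normalised over the 15 channels, and the log2 value was taken. Control and outlier spots were left out, and no spot of these samples was saturated. Of 55681 probes, 34271 were kept, those well above background in 3 or more samples of any 1 group; all 8 goblet cell genes passed. Names came from RefSeq through the probes' transcript accessions, of which 27656 of 29123 matched. Each gene was read from its brightest probe on average, which left 25251 genes. They were fitted in R 4.3.3 with limma 3.58.1 as groups plus dye, with empirical Bayes variances and Benjamini-Hochberg adjustment over all of them, at a threshold of 0.05. The fit was tested on simulated data.

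An "at least" fold sets each sample not well above background to its own value or to the dimmest signal its array calls well above background, whichever is larger. The number of arrays limits the precision.

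The goblet cell genes and the 15 gene lists were chosen with earlier results of these data known. Beside the goblet cell genes and their relatives, the text names the 2 genes of smallest adjusted p in each list and comparison, and the 3 genes of highest correlation with each goblet cell gene, and list genes with no signal above background. Alternatives covered background, normalisation, filter, probe choice, dye, slide, variance, sample weights, replicate number and each sample left out in turn.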

Additional observations from a re-analysis of the deposited data

Results flagged for a closer look

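The effect of rCNT differed between aspiration and inhalation for 5 of the 8 genes by the test of the difference itself, 4 with a larger aspiration effect and 1 with a larger inhalation effect. Over all genes tested 28.4% and 28.5% passed in these directions, so this count is near the background. In log2 units, as the aspiration effect minus the inhalation effect, it was 0.80 for Foxa3, 1.47 for Fcgbp, 0.42 for Ern2 and -0.43 for Tff2. For Tff1 it was 2.58 on probe A_55_P2112005 and 2.44 on probe A_55_P2021585. The Tff2 value did not pass in 11 of 27 other settings and the Ern2 value in 2 of 26, and Foxa3 and Tff1 rest on groups mostly at background. Each of these differences also contains the difference between PBS and untreated samples and between slides.

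Among untreated samples the Tff2 level of replicate 1 stood above the other 3, with a gap of 0.849 of the group's whole range. It was 1 of 27 such groups of values looked at, and chance marks about 1 in 20. This is the sample titled as a PBS aspiration. Without it Tff2 was still higher after inhalation, and the count of goblet cell genes higher than in untreated samples was again 6.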

How the results depend on the processing

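In aspirated rCNT against PBS and in inhaled rCNT against untreated, every call among the 8 genes was kept in every setting that tested the gene. Counts moved where fewer could be tested: with probes well above background in all samples, 5 of the 8 were tested, 5 rose after aspiration and 2 differed in effect. With the scanner's processed signal 3 differed in effect. Signs turned only where no call was made. With the processed signal this was 0.0814 for Ern2 after inhalation, -0.37 for Agr2 in the difference of effects, -0.10 for Tff1 in PBS against untreated and 0.37 for Foxa3 in inhaled rCNT against PBS. Ern2 after inhalation was 0.0148 without background correction, 0.011 with cyclic loess and 0.0154 in the deposited table, and ran from -0.16 to 0.10 with 1 sample left out. Tff1 in PBS against untreated was -0.28 with median centring, -0.29 with loess and -0.0225 as the mean of its probes, and ran from -0.0138 to 0.0672. Foxa3 in inhaled rCNT against PBS was 0.0115 without background correction, 0.0127 with loess, 0.0102 in the deposited table, 0.13 with median centring and 0.0174 with array weights, and ran from -0.0838 to 0.015. Spdef in PBS against untreated was -0.0006 without background correction, -0.0056 in the deposited table and -0.0381 with array weights, and ran from -0.0622 to 0.0321. Foxa2 after inhalation was 0.0597 with loess. The cause was not tested.

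With the replicate number as a block, 8 and 6 of the genes rose as before, while calls over all genes went from 11907 to 12794 after aspiration and from 15364 to 9672 after inhalation. Deviations of same-numbered samples were mixed. For numbers 1 to 4 of aspirated rCNT and PBS, r was 0.22, -0.04, -0.12 and 0.32. For numbers 1 to 3 of inhaled rCNT and untreated samples it was -0.01, -0.11 and 0.12. Of the numbers, 2 of 4 and 1 of 3 matched best with themselves. Whether equal numbers mark pairs was not tested. Elf5 did not pass with the block (adjusted p = 0.0729). A random block for the shared array could not be fitted, as only 1 array held a pair of samples. Median centring moved the share of calls that were higher to 57.05% in aspirated rCNT against untreated, from 43.34%. Dim signal limits Foxa3, Tff1 and Ern2 most, whose sizes grew with the processed signal.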
